A study of Danio rerio with 6 samples.

Results

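The 10 genes described here encode the endothelial Bmp receptor Alk1 (acvrl1), the type II receptors bmpr2a and bmpr2b, the receptor-activated Smads smad1 and smad5, the inhibitory Smads smad6a and smad6b, and the Id genes id1, id2a and id3. They were taken by gene symbol from a table of 31701 zebrafish genes. The rule uses symbols alone, but the list was drawn up with earlier results of these data known. All 10 were detected in every library and passed a minimum mean value of 5, together with 20900 genes in all that were tested. An antisense gene (ENSDARG00000096939) that also carries the symbol id1 in the table was kept apart and is not counted among the 10.

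Bmp ligands bind a complex of type I and type II receptors on the cell surface. In endothelial cells the type I receptor Alk1 pairs with Bmpr2, and the active complex phosphorylates receptor-activated Smads, which move to the nucleus with Smad4 and switch on target genes. Id genes are classic targets of this signal, and their products bind bHLH transcription factors and keep them off DNA, while the inhibitory Smads are also induced by the signal and act back on it. Zebrafish that lack acvrl1 develop enlarged cranial vessels and arteriovenous shunts. Transcript levels, as measured here, do not record Smad phosphorylation.

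Endothelial cells were sorted from zebrafish embryos of the AB strain at 48 h post fertilization (hpf) and profiled by total RNA sequencing, with 2 libraries for each of 3 groups. All groups carried Tg(kdrl:EGFP)s843, which marks endothelial cells with EGFP. The hhex overexpression (OE) embryos also carried Tg(fli1a:tdTomato-2A-hhex)bns136, in which the fli1a promoter drives hhex in endothelial cells, and their cells were sorted for EGFP and tdTomato together. The hhex mutant embryos were chosen by the absence of parachordal lymphangioblasts (PLs), the lymphatic precursors at the midline, and carry an allele of the homeobox factor Hhex that the study names s722, a short in-frame deletion in the homeodomain. The sibling embryos were chosen by the presence of PLs, so that heterozygotes may be among them although the labels call them wild type. Mutant and sibling cells were sorted for EGFP alone, so the gate differed between OE and the other groups. Cells came from dissociated embryos, and no label says whether the replicates came from separate clutches, so the p-values measure only the spread between these samples, which may be technical.

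Values are read numbers per gene divided by a size factor for each library, so that a level can be compared between libraries for 1 gene but not between genes of different length. Library totals lay between 19133058 and 23381023 normalized units, in which 1 read was worth 0.810 to 1.096 units, and counting error alone was 2.39% to 6.95% of a value for these 10 genes. The targeted gene hhex stood at 764 and 925 in OE libraries and at 613 and 1157 in mutant libraries, against 204 and 279 in sibling libraries. The value in OE fits the label, whereas a short in-frame deletion leaves the transcript countable, so the level in mutants is no check of theirs. The study also saw raised endothelial hhex in younger mutant embryos by in situ hybridization, and it proposes that Hhex can repress its own gene. A set of 10 endothelial markers, among them fli1a, tie1, pecam1 and cldn5b, was present in every library. Markers of other cell types were found in every library too, so presence alone does not check the labelled cell type. The summed level of the endothelial markers was 37097 and 32124 in OE, 11604 and 32249 in mutants, and 15688 and 26127 in siblings. Mutant replicate 1 stood apart: it had the lowest endothelial sum and also the lowest of the 6 values for 9 of the 10 genes. In bulk RNA of sorted cells, fewer cells of a type and less RNA per cell cannot be told apart.

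**Figure D1:**
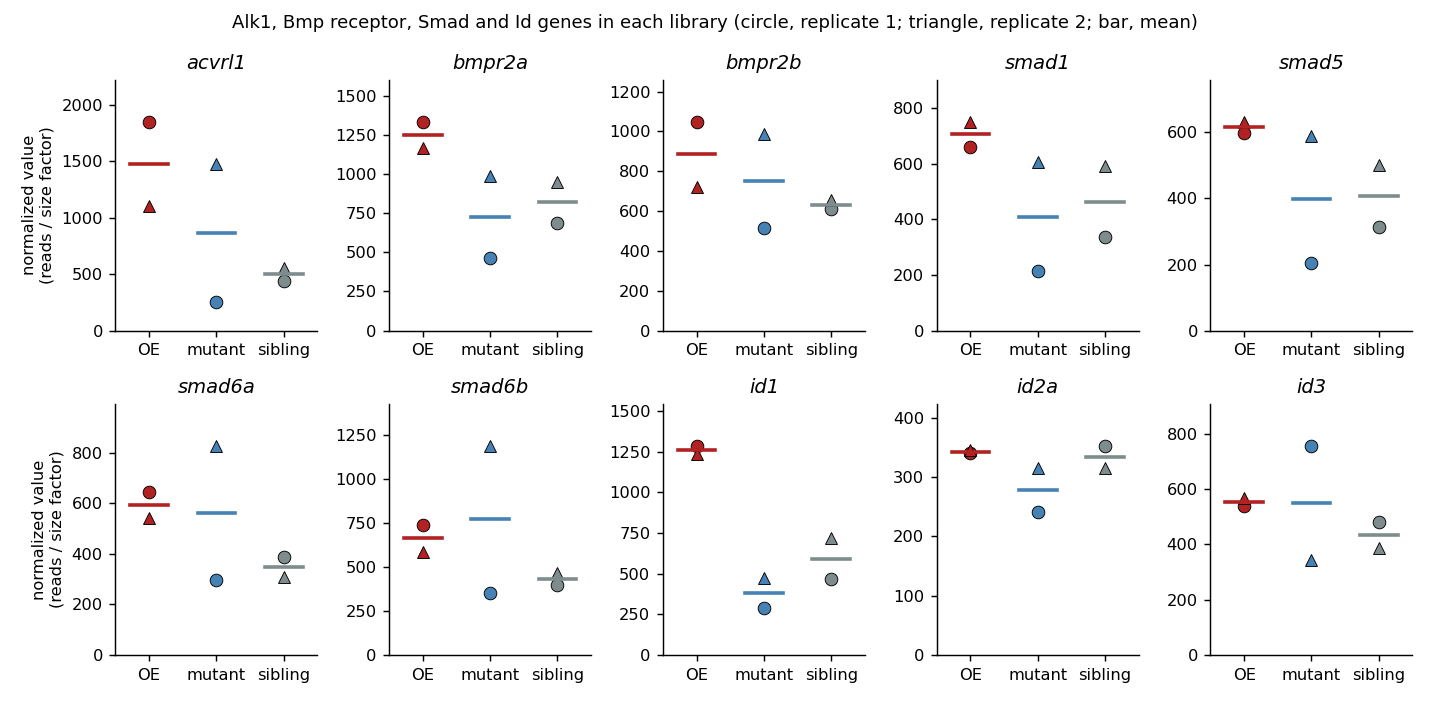
Normalized value (reads divided by the size factor of the library, y axis from 0) of each of the 10 genes in OE, mutant and sibling libraries. Circles are replicate 1, triangles replicate 2 and bars group means. Both OE values lie above both sibling values in 9 of the 10 panels, id2a being the exception, and the mutant pair is spread the widest in 9 of the 10, all but id1.

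The first comparison asks how the level of the pathway differs when hhex is overexpressed in the endothelium. Both OE libraries were higher than both sibling libraries for 9 of the 10 genes, where 26.9% of all genes tested showed this order (27% the opposite one), and all 10 log2 fold changes were above 0. Their median was 0.63, beside a median of 0.022 over all genes tested. No gene passed an adjusted p of 0.05 (limma, Benjamini-Hochberg over 20900 genes), neither among the 10 nor among all genes, where 0% were called. The study used DESeq2 instead and did list genes such as hhex, sox18 and lyve1b as differing between OE and siblings. In the limma fit all groups, the mutants included, shared 1 estimate of the spread. At an unadjusted p under 0.05 in that fit, 1 of the 10 genes was higher, where 6.23% of all genes tested were. The summed endothelial markers moved with these genes, since all 10 markers were also higher in both OE libraries than in both sibling libraries, with a median log2 fold change of 0.89. Neural and epidermal markers were higher in OE as well, with sums of 6143 and 5121 for 7 neural genes in OE against 3434 and 3369 in siblings, and of 4834 and 6035 for 8 epidermal genes in OE against 3704 and 1530 in siblings. Muscle markers were lower in OE, with sums of 3836 and 10612 for 9 genes against 21301 and 13703 in siblings. Of 8 erythroid markers, 3 were lower and 0 higher in both OE libraries (median log2 fold change -0.81). Of 8 myeloid markers, 2 were lower and 1 higher (-1.04). The part of these cell types in the result was not tested.

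The second comparison asks how the pathway differs in the absence of functional Hhex. None of the 10 genes had mutant and sibling libraries that did not overlap, where 13.3% of all genes tested were higher and 13.4% lower in both mutant libraries. Their log2 fold changes fell evenly around 0, with 5 above and 5 below and a median of -0.0049, beside -0.010 over all genes. For 6 of the 10 genes the fold change was smaller than its standard error, and every adjusted p was 1 (limma). This comparison rests on mutant libraries that differed from each other, as replicate 2 was higher than replicate 1 by between 1.31-fold (id2a) and 5.77-fold (acvrl1) for 9 genes, and id3 stood at 0.455 of its replicate 1 value. Muscle markers were lower in both mutant than in both sibling libraries for 7 of 8 tested genes (median log2 fold change -1.74). Their sums over 9 genes were 6257 and 4046 in mutants against 21301 and 13703 in siblings. No single endothelial, erythroid or neural marker separated (medians -0.038, 0.22 and -0.71), whereas 2 of 8 myeloid markers were higher, and 1 of 8 epidermal markers was higher and 1 lower. The sum of the 7 neural markers did separate, with 2677 and 2589 in mutants against 3434 and 3369 in siblings. The part of these cell types was not tested.

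The third comparison sets OE against mutants directly. Both OE libraries were higher than both mutant libraries for 5 of the 10 genes, bmpr2a, smad1, smad5, id1 and id2a, where 24.1% of all genes tested showed this order. All 10 log2 fold changes were above 0, with a median of 0.57 beside 0.020 over all genes, and none passed an adjusted p of 0.05. At an unadjusted p under 0.05, 2 genes were higher, id1 and bmpr2a, where 8.68% of all genes tested were. Several marker lists differed in this comparison as well. Both OE libraries were higher than both mutant libraries for 5 of 10 endothelial markers (median log2 fold change 0.91), 5 of 7 neural markers (1.495) and 5 of 8 epidermal markers (1.64). They were lower for 6 of 8 erythroid markers (-0.96), where 24.6% of all genes tested were. Of 8 myeloid markers 2 were lower, near that share, and 1 higher (-1.78). Of 8 muscle markers tested, 0 were higher and 0 lower (0.295). The part of these cell types in the result was not tested. Without mutant replicate 2, 6 of the 10 genes were higher in OE at an adjusted p under 0.05, where 7.23% of all genes tested were, with acvrl1 at 2.48 (adjusted p = 0.0037), id1 at 2.13 (0.00378), smad1 at 1.72 (0.0117), smad5 at 1.58 (0.0113), bmpr2a at 1.44 (0.00941) and smad6a at 0.99 (0.0408). In that fit mutant replicate 1 is alone in its group and is assumed to vary like the others. Without mutant replicate 1 none of the 10 passed, and acvrl1 (-0.05), bmpr2b (-0.18), smad6a (-0.49) and smad6b (-0.85) were below 0. The comparison shares its OE libraries with the first and its mutant libraries with the second.

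**Figure D2:**
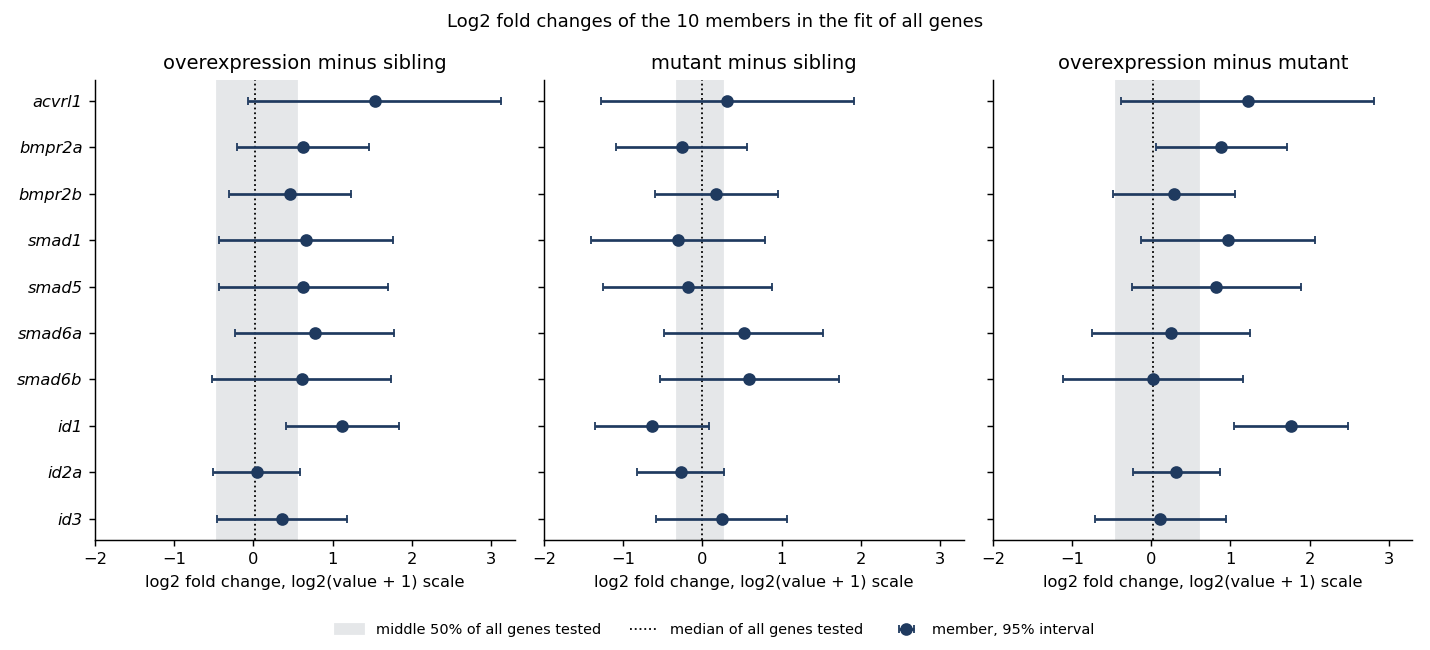
Log2 fold change on the log2(value + 1) scale (x axis) of the 10 genes in each of the 3 comparisons, with 95% intervals of the fit across all genes. The grey band holds the middle 50% of all genes tested and the dotted line is their median. The interval of id1 lies above 0 between OE and siblings (0.41 to 1.84) and between OE and mutants (1.05 to 2.48).

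The type I receptor gene acvrl1 (ENSDARG00000018179, GRCz10 chromosome 23, 27909106 to 27930563, minus strand) had values of 1850 and 1105 in OE libraries, 256 and 1476 in mutant libraries, and 443 and 551 in sibling libraries. Both OE values lay above both sibling values, whereas the mutant pair enclosed the sibling pair and reached into the range of OE. The OE mean of 1477.5 ± 527 (SD, n = 2) was 2.89-fold that of siblings on the log2 scale of the fit, a log2 fold change of 1.53 (SE 0.69, adjusted p = 0.347 from limma), which was larger than that of 95.6% of all genes tested. Between OE and mutants it was 1.22 (adjusted p = 0.392), and between mutants and siblings 0.32 (SE 0.69). The result depended on which libraries set the spread. Fitted on the 4 OE and sibling libraries alone, the same fold change had an adjusted p of 0.0193, where 1.88% of all genes tested were called higher, and with mutant replicate 1 or mutant replicate 2 left out it had 0.0216 or 0.0198 (1.7% and 1.69% of all genes called higher). Over all alternatives its adjusted p ranged between 0.0193 and 0.823.

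The type II receptor gene bmpr2a had values of 1334 and 1168 in OE libraries, 461 and 988 in mutant libraries, and 688 and 949 in sibling libraries. Both OE values were above all 4 others. Its log2 fold change was 0.63 between OE and siblings (SE 0.36, adjusted p = 0.423) and 0.89 between OE and mutants (SE 0.36, unadjusted p = 0.0390, adjusted p = 0.265). Its paralog bmpr2b had 1050 and 723 in OE libraries, 516 and 989 in mutant libraries, and 609 and 655 in sibling libraries, so that OE lay above siblings and overlapped with mutants. The log2 fold change of bmpr2b was 0.46 between OE and siblings (SE 0.34) and 0.29 between OE and mutants. The gene fam117ba lies on the other strand within bmpr2a at a mean value of 48.0, and reads of overlapping genes may not be told apart where strand was not used in counting, a setting not given in the sources used here.

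The receptor-activated Smads carry the signal of the receptor to the nucleus. In OE libraries smad1 had 661 and 751, in mutant libraries 213 and 606, and in sibling libraries 336 and 590. The values of smad5 were 599 and 633 in OE, 206 and 590 in mutants, and 315 and 501 in siblings. For both genes OE was above all other libraries, and mutant replicate 2 was above both siblings. Their log2 fold changes were 0.66 and 0.63 between OE and siblings (adjusted p = 0.512 and 0.519 from limma) and 0.97 and 0.82 between OE and mutants (adjusted p = 0.328 and 0.389). Within every library these genes kept nearly the same ratio, as the centred log2 difference of smad5 and smad1 lay between -0.11 and 0.10 over the 6 libraries.

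The inhibitory Smads, which bind type I receptors and hold the signal back, were the 2 of the 10 genes with their highest value in mutant replicate 2. In OE libraries smad6a had 645 and 542, in mutant libraries 298 and 828, and in sibling libraries 389 and 307. The values of smad6b were 738 and 586 in OE, 354 and 1187 in mutants, and 399 and 464 in siblings. OE was above siblings in both libraries for each gene, with log2 fold changes of 0.77 (SE 0.43, adjusted p = 0.415) for smad6a and 0.61 (SE 0.49, adjusted p = 0.556) for smad6b. The mutant pairs enclosed the sibling pairs, and the log2 fold changes between mutants and siblings were 0.52 and 0.59, each at an adjusted p of 1. Without mutant replicate 1 they were 1.26 and 1.46 (adjusted p = 0.136 and 0.0835), and without mutant replicate 2 they were -0.21 and -0.28. Between OE and mutants the 2 genes differed by 0.25 and 0.02, less than their standard errors.

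Of the Id genes, id1 (ENSDARG00000040764, GRCz10 chromosome 11, 18541849 to 18542961, minus strand) had the smallest adjusted p of the 10 genes both between OE and siblings and between OE and mutants. It had 1287 and 1235 in OE libraries, 288 and 476 in mutant libraries, and 465 and 718 in sibling libraries. The OE libraries, at a ratio of 0.960 to each other, lay above all others, and mutant replicate 2 was just above sibling replicate 1. The OE mean was 1261 ± 36.8, the mutant mean 382 ± 133 and the sibling mean 591.5 ± 179 (SD, n = 2 each). Its log2 fold change was 1.12 between OE and siblings (SE 0.31, unadjusted p = 0.0069, adjusted p = 0.229) and 1.76 between OE and mutants (SE 0.31, unadjusted p = 0.00048, adjusted p = 0.116). Between mutants and siblings it was -0.64 (SE 0.31, unadjusted p = 0.0736), the lowest of the 10 genes. Fitted on the 4 OE and sibling libraries, the difference between OE and siblings had an adjusted p of 0.0299 (limma), where 1.88% of all genes tested were called higher. Over all alternatives this adjusted p ranged between 0.0299 and 0.877. The antisense gene over id1 had 15 and 13 in OE libraries, 0 and 0 in mutant libraries, and 11 and 0 in sibling libraries, at most 15 units beside at least 288 for id1.

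The other Id genes did not share this order. In OE libraries id2a had 341 and 346, in mutant libraries 241 and 315, and in sibling libraries 353 and 315. The OE libraries lay within the sibling pair, with a log2 fold change of 0.04 (95% interval -0.51 to 0.59), and above both mutants by 0.32 (SE 0.24, adjusted p = 0.515). The values of id3 were 538 and 567 in OE, 756 and 344 in mutants, and 480 and 385 in siblings. OE was above siblings by 0.36 (SE 0.36, adjusted p = 0.638), and the mutants held both the highest and the lowest value of id3. It was the only gene of the 10 that was at its highest in mutant replicate 1, the library in which the other 9 were at their lowest.

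By mean log2 level, the endothelial markers were highest in the OE libraries and lowest in mutant replicate 1, where 9 of the 10 genes were also at their lowest and id3 at its highest. The levels were also taken relative to the mean log2 level of the 10 markers. Centred on the 6 libraries, this mean was 0.70 and 0.47 in OE, -1.09 and 0.44 in mutants, and -0.65 and 0.13 in siblings. Rescaling to it moved the median of all genes to -0.82 between OE and siblings, 0.061 between mutants and siblings, and -0.89 between OE and mutants, so the values below are read against these shifts. The study describes markers of endothelial cells as changed by hhex overexpression alone, and the sorting gate of OE differed. The reference may therefore itself differ in OE, and whether the 10 markers are a neutral reference was not tested. Between OE and siblings, acvrl1 (0.69, adjusted p = 0.692) and id1 (0.29, adjusted p = 0.877) remained higher in both OE libraries, where 4.66% of all genes were. The other 8 were below 0, between -0.07 for smad6a and -0.80 for id2a, and of these bmpr2a and id2a were lower in both OE libraries, where 58.3% of all genes were. Rescaling shifts every gene of a comparison by the same amount and leaves their order unchanged. The 8 genes thus stood where they had before, between id2a above 51.0% and smad6a above 82.7% of all genes tested.

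Relative to the endothelial markers, the mutant libraries separated from the siblings for 5 genes that had overlapped before. The inhibitory Smads smad6a (0.59) and smad6b (0.66) were higher in both mutant libraries, where 5.94% of all genes were, and smad1 (-0.24), smad5 (-0.12) and id1 (-0.57) were lower in both, where 5.11% of all genes were. The margin was narrow for smad6a, at 0.39 in mutant replicate 2 and 0.38 in sibling replicate 1. It was also small for smad5 (-0.00013 in mutant replicate 1 and 0.052 in sibling replicate 2) and id1 (-0.071 and 0.018 in the same libraries). None passed the test, and every adjusted p of the 10 genes was 1.00 (limma). Between OE and mutants, id1 was higher in both OE libraries (0.85, where 4.36% of all genes were), and bmpr2b (-0.62), smad6a (-0.66) and smad6b (-0.89) were lower in both, where 43.9% of all genes were.

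**Figure D3:**
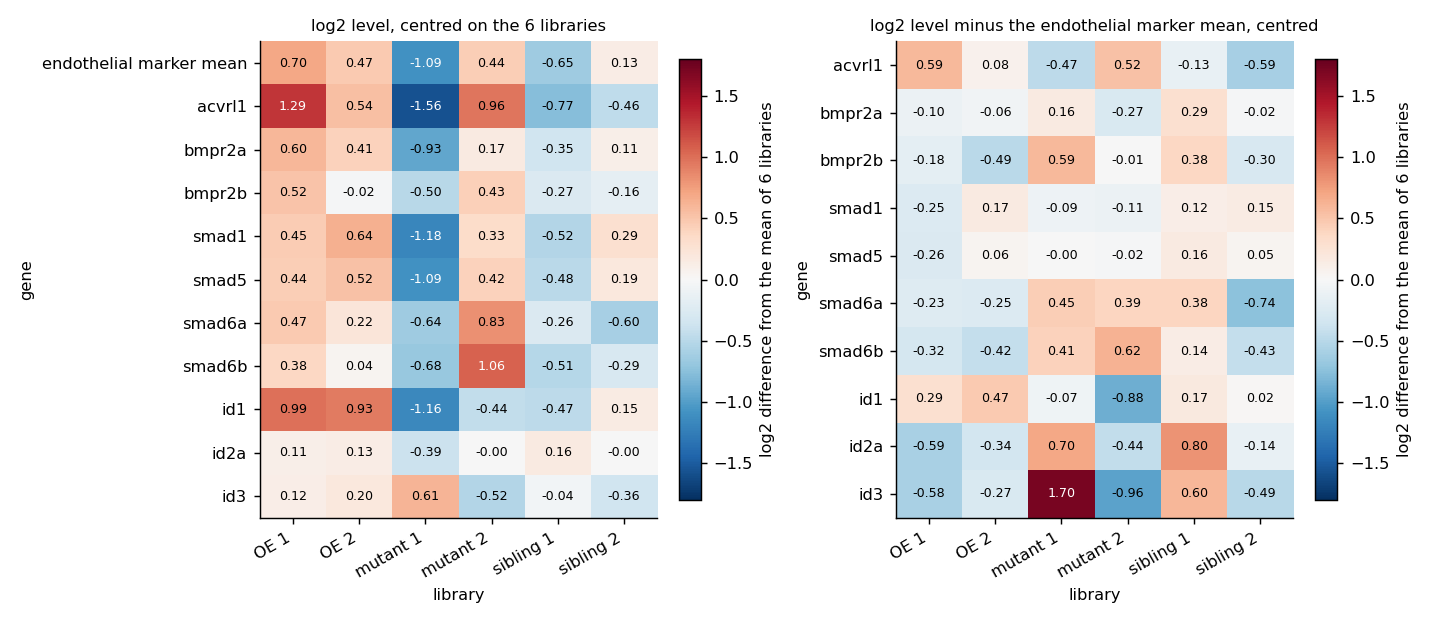
Left, centred log2 level of the endothelial marker mean and of each of the 10 genes in the 6 libraries. Right, the same after subtracting the marker mean within each library. Colour and printed numbers give the log2 difference from the mean of the 6 libraries. Mutant 1 is low on the left for 9 genes and the marker mean (-1.09), and on the right id1 is highest in the OE libraries (0.29 and 0.47) and lowest in mutant 2 (-0.88).

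Differences between 2 members within a library do not depend on how libraries are scaled. The pairs were chosen after the values had been seen, and with 2 libraries against 2 an exact permutation test cannot give a two-sided p under 0.333, so they are given as values. The centred log2 difference of smad6b, an inhibitor, and smad1, a carrier of the signal, was -0.07 and -0.59 in OE, 0.50 and 0.74 in mutants, and 0.01 and -0.58 in siblings. For smad6a and smad5 it was 0.02 and -0.31 in OE, 0.45 and 0.40 in mutants, and 0.22 and -0.79 in siblings. For these 2 pairs of genes both mutant libraries were higher than the other 4. The order was not particular to an inhibitor and a carrier. It also held for bmpr2b and bmpr2a, with 0.43 and 0.27 in mutants and at most 0.09 in the other libraries. For smad5 and smad1 the margin was narrow, with 0.09 and 0.10 in mutants and at most 0.04 in the others. It did not hold for id3 and id1, id2a and id1, acvrl1 and bmpr2a, smad6b and smad6a, or id1 and acvrl1. The share of all pairs of genes with this order was not computed.

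Between mutants and siblings, smad6b had the highest (0.59) and id1 the lowest (-0.64) log2 fold change of the 10 genes. The ratio of smad6b to id1, both targets of the pathway and paired with these values known, separated all groups. This choice of pair favoured a separation of mutants from siblings, so the ratio is given as values only. Its centred log2 value was -0.62 and -0.89 in OE libraries, 0.48 and 1.50 in mutant libraries, and -0.04 and -0.44 in sibling libraries. The ratio of id2a to id1 was lower in OE (-0.88 and -0.80) than in mutants (0.77 and 0.44) and siblings (0.63 and -0.16), and mutants and siblings overlapped. For acvrl1 against bmpr2a, which form the receptor complex together, the difference was 0.69 and 0.14 in OE, -0.63 and 0.79 in mutants, and -0.42 and -0.57 in siblings. OE was above siblings in this ratio, and the mutant libraries were at its lowest and its highest value.

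The other genes of the pathway were followed in 8 lists of ligands, receptors, Smads, modulators, regulators, targets, genes downstream of Alk1 in zebrafish vessels and bHLH partners of Id proteins, of which 114 genes were in the table and 102 were tested. None passed an adjusted p of 0.05 in any comparison (limma). At an unadjusted p under 0.05, 15 were higher and 4 lower between OE and siblings (background 6.23% and 8.77%), 2 and 2 between mutants and siblings (1.23% and 2.17%), and 19 and 5 between OE and mutants (8.68% and 8.9%). The median log2 fold change of the 102 genes was 0.42, 0.067 and 0.39 in these comparisons.

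Among the ligands, 7 of 12 tested were higher in both OE than in both sibling libraries and 0 lower, where 26.9% and 27% of all genes tested were. The largest such difference at a mean of at least 50 was that of bmp6, with 918 and 567 in OE libraries, 136 and 475 in mutant libraries, and 216 and 389 in sibling libraries, a log2 fold change of 1.31 (SE 0.57, adjusted p = 0.333). Like acvrl1, bmp6 was lowest in mutant replicate 1. Of the genes of the circulating ligands of Alk1, gdf2 had between 0 and 11 in all libraries and was not tested. The other, bmp10, had 152 and 131 in OE, 87 and 202 in mutants, and 107 and 96 in siblings. OE was above siblings in both libraries for bmp10 (0.47, SE 0.41, adjusted p = 0.584 from limma), and the mutant pair enclosed all other values.

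Of the other receptors and co-receptors, 9 of 16 tested were higher and 0 lower in both OE than in both sibling libraries (26.9% and 27% of all genes tested). Against both mutant libraries 10 of 16 were higher and 1, bmpr1aa (-0.74), was lower (24.1% and 24.6% of all genes tested). The type I receptor gene bmpr1aa had 428 and 353 in OE, 445 and 943 in mutants, and 288 and 392 in siblings, the largest separation upward between mutants and siblings among receptors (0.95, SE 0.36, adjusted p = 1). The receptor-like gene tgfbr2l had 73 and 112 in OE, 25 and 19 in mutants, and 42 and 66 in siblings, with a log2 fold change of -1.23 between mutants and siblings (adjusted p = 1) and 2.004 between OE and mutants (adjusted p = 0.143). The co-receptor gene rgmb had 83 and 51 in OE, 18 and 54 in mutants, and 58 and 63 in siblings, with a log2 fold change of -0.93 between mutants and siblings (adjusted p = 1).

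Of the other Smads, named here for their roles after their values were known, smad4a, the common partner, had 413 and 449 in OE, 365 and 415 in mutants, and 322 and 425 in siblings, groups that overlapped. The receptor-activated smad9 had 359 and 341 in OE, 219 and 435 in mutants, and 319 and 376 in siblings, a log2 fold change of 0.015 between OE and siblings, beside 0.66 for smad1 and 0.63 for smad5. The inhibitory smad7 had 456 and 338 in OE, 213 and 346 in mutants, and 189 and 257 in siblings (0.83 between OE and siblings, adjusted p = 0.301). OE was thus above siblings in both libraries for smad7, as for smad6a and smad6b, and not for smad9. Of the 8 other Smads tested, 2 were higher (smad7 and smad10a) and 1 lower (smad2) in both OE than in both sibling libraries. Of all genes tested, 26.9% and 27% were.

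Extracellular antagonists and modulators had 11 of 17 tested genes higher and 1 of 17 lower in both OE than in both sibling libraries (26.9% and 27% of all genes tested), and a median log2 fold change of 0.74. The protease gene tll1, of the family that cleaves the Bmp antagonist Chordin, had 3052 and 2552 in OE, 477 and 1978 in mutants, and 980 and 1746 in siblings, and its log2 fold change between OE and mutants was 1.52 (SE 0.59, adjusted p = 0.252). Intracellular regulators had 11 of 21 higher and 4 of 21 lower in both OE than in both sibling libraries (26.9% and 27% of all genes tested), with a median of 0.31.

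**Figure D4:**
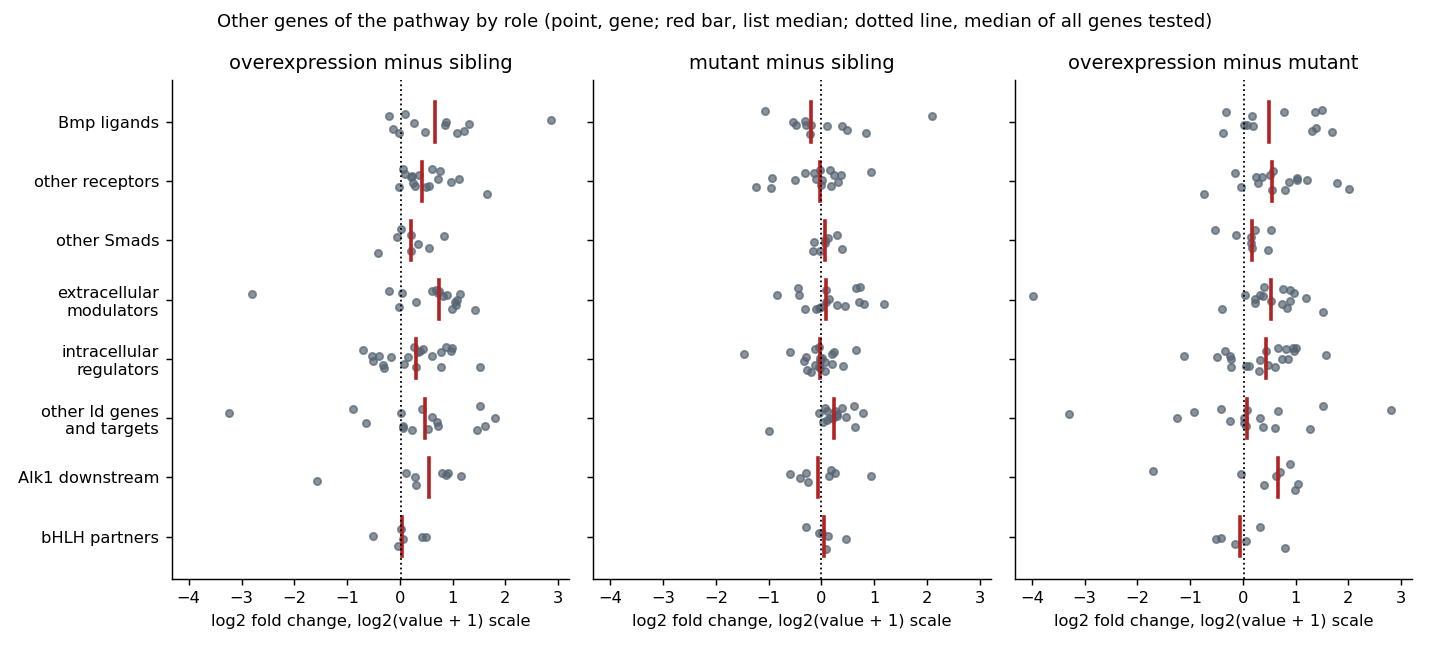
Log2 fold change on the log2(value + 1) scale (x axis) of the tested genes of the 8 pathway lists (rows) in the 3 comparisons. Points are genes, red bars list medians and the dotted line is the median of all genes tested. List medians lie between 0.04 and 0.74 for OE minus sibling and between -0.20 and 0.23 for mutant minus sibling.

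Of the other Id genes and targets, 5 of 16 tested were higher and 2 lower in both OE than in both sibling libraries (26.9% and 27% of all genes tested). Against both mutant libraries 4 were higher and 3 lower (24.1% and 24.6% of all genes tested). Among them was atoh8, a bHLH gene downstream of Alk1 and Smad signaling in mammalian endothelium. It had 459 and 445 in OE libraries, 118 and 296 in mutant libraries, and 178 and 138 in sibling libraries. OE was above all other libraries, as for id1, with a log2 fold change of 1.52 from siblings (SE 0.41, adjusted p = 0.225). The paralog id2b had 187 and 287 in OE, 136 and 385 in mutants, and 158 and 246 in siblings, which overlapped throughout. In the opposite direction, runx3 had 43 and 221 in OE, 2952 and 317 in mutants, and 1158 and 742 in siblings, a log2 fold change of -3.23 between OE and siblings (SE 1.08, adjusted p = 0.270) and -3.29 between OE and mutants (adjusted p = 0.215). Runx3 is also known for its role in blood cells. The summed level of 8 myeloid markers was 938 and 8701 in OE, 10635 and 12952 in mutants, and 8028 and 8562 in siblings. This sum and runx3 were both lowest in OE replicate 1. In OE replicate 2 the sum was above both siblings and runx3 below both, and in mutants the replicates had opposite orders. The part of myeloid cells in the result was not tested.

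Of the 8 genes tested downstream of Alk1 in zebrafish vessels, 5 were higher and 1 lower in both OE than in both sibling libraries. Of all genes tested, 26.9% and 27% were, and the list had a median log2 fold change of 0.55. Genes were counted without regard to the direction in which Alk1 acts on them, so these counts do not measure Alk1 activity. The chemokine receptor paralogs of this list lay on opposite sides of the siblings in OE. The values of cxcr4b were 176 and 155 in OE, 639 and 459 in mutants, and 623 and 384 in siblings, below all other libraries in OE, by -1.56 from siblings (SE 0.30, adjusted p = 0.191) and -1.71 from mutants (adjusted p = 0.118). In contrast cxcr4a had 634 and 526 in OE, 352 and 993 in mutants, and 331 and 282 in siblings, above both siblings in OE (0.92) and in mutants (0.95, SE 0.44, adjusted p = 1). Of the bHLH genes whose products Id proteins bind, 2 of 6 tested were higher and 1 lower in both OE than in both sibling libraries, near the shares of all genes tested (26.9% and 27%), with a median of 0.04.

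The genes with the profile nearest to acvrl1 over the 6 libraries, by the root mean square difference of centred log2 values over 11327 genes that have a symbol and average 50 or more, were eppk1 (0.13), abcb4 (0.13) and stox1 (0.18). The values of eppk1 were 22967 and 13112 in OE, 3274 and 21572 in mutants, and 5935 and 6119 in siblings. The nearest of the other 9 pathway genes to acvrl1 was smad5, at 0.54 and rank 608. For id1 the nearest were fam102ab (0.10), tln2b (0.11) and kirrel3l (0.11), the last with 1007 and 1066 in OE, 280 and 464 in mutants, and 436 and 673 in siblings. The nearest of the pathway genes to id1 was bmpr2a, at 0.38 and rank 454, whereas acvrl1 was at rank 3188. The 6 points behind each likeness share depth scaling and cell makeup.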

How the data were processed

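RNA of sorted endothelial cells was measured in 6 libraries (2 OE, 2 mutant, 2 sibling). The authors trimmed the reads, aligned them to GRCz10 with STAR 2.4.0a, counted reads on exons per gene with featureCounts 1.4.5-p1, leaving out reads on several genes or places, and normalized with DESeq2 1.62. The deposited values are a signal, the read number of a gene divided by a size factor and rounded to a whole number, so no count model was fitted. The strand setting of the counting is not given in the sources used here. Gene names are those of the deposited table, and hhex was named through its Ensembl identifier.

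Values were taken as log2(value + 1) for 20900 genes whose values averaged 5 or more and fitted with limma 3.58.1 in R 4.3.3 (3 groups, all 6 libraries, trended and robust moderation, two-sided, Benjamini-Hochberg over all genes tested, threshold 0.05). The fit was tested on simulated data. Fold changes on this scale understate those of low genes. The 10 genes, the pathway lists and the marker lists were chosen with earlier results of these data known. Of the pathway lists, the genes named by rule in each comparison are the 2 highest and the 2 lowest log2 fold changes among genes with a mean of at least 50 whose groups did not overlap. Others were named for their role, such as gdf2, bmp10, id2b and the other Smads, or after their values had been seen, such as bmp4 and chrdl2. The alternatives were another minimum mean (none or 50), another pseudocount (0.1 or 5), a fit of the 4 compared libraries, the replicate number as a block, libraries scaled to the endothelial markers or by quantiles, and each library left out. A crossed replicate block and the counts of non-overlapping genes under these alternatives were added after seeing the data. Columns of gene function annotation were not used. With 2 libraries a group, precision is set by their spread, whose median SD on the log2 scale was 0.17 in OE, 0.31 in mutants and 0.20 in siblings.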

Additional observations from a re-analysis of the deposited data

How the results depend on the processing

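The main counts of genes called, 0 in each comparison, became 4 between OE and siblings and 10 between OE and mutants with no filter, 42 and 82 after rescaling to the endothelial markers (all lower in OE), and 841 between OE and siblings with the 4 libraries alone (392 higher, 449 lower). With 1 library left out they were 0 to 838 (OE and siblings), 0 to 13 (mutants and siblings) and 0 to 2512 (OE and mutants), and each highest count came with 1 of the mutant libraries left out, replicate 2, replicate 1 and replicate 2. For OE and siblings, leaving out a mutant library nearly repeats the fit of the 4 libraries, since a library alone in its group adds nothing to the spread. The counts at an unadjusted p under 0.05 in the main fit were 3135, 711 and 3675. Genes of the 10 higher in every OE library were 2 (siblings) and 1 (mutants) after rescaling (4.66% and 4.36% of all genes tested), and 9 to 10 and 5 to 9 with 1 library left out, where 26.9% to 39.2% and 24.1% to 39.9% of all genes tested were. The cause was not tested.

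Rescaling turned the log2 fold change between OE and siblings of bmpr2a (-0.21), bmpr2b (-0.38), smad1 (-0.18), smad5 (-0.21), smad6a (-0.066), smad6b (-0.23), id2a (-0.80) and id3 (-0.48), and between OE and mutants of bmpr2a (-0.024), bmpr2b (-0.62), smad5 (-0.092), smad6a (-0.66), smad6b (-0.89), id2a (-0.59) and id3 (-0.80), with the median of all genes moved to -0.82 and -0.89. With 1 library left out the sign was unstable between mutants and siblings for acvrl1 (-0.95 to 1.58), bmpr2a (-0.81 to 0.29), bmpr2b (-0.29 to 0.65), smad1 (-1.06 to 0.44), smad5 (-0.94 to 0.57), smad6a (-0.21 to 1.26), smad6b (-0.28 to 1.46) and id3 (-0.32 to 0.81), between OE and mutants for acvrl1 (-0.046 to 2.48), bmpr2b (-0.18 to 0.75), smad6a (-0.49 to 0.99), smad6b (-0.85 to 0.89) and id3 (-0.45 to 0.68), and between OE and siblings for id2a (-0.039 to 0.12). Other filters, pseudocounts and quantile scaling turned none of the 10 genes.

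With the replicate number as a block, 0 genes were called in each comparison, id1 between OE and mutants had an adjusted p of 0.0873 (limma), and no call changed. The numbers do not pair the samples by label, and deviations of same-numbered libraries over 11850 genes correlated at -0.11 (OE and siblings), 0.49 (mutants and siblings) and -0.20 (OE and mutants). A crossed block, with the OE numbers exchanged and added after seeing the data, called 689, 20 and 1213 genes (OE and siblings, mutants and siblings, OE and mutants).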

Other observations

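The ligand gene bmp4, like hhex, was higher in both OE and both mutant libraries than in both sibling libraries. Of all genes tested, 26.9% were higher in both OE libraries and 13.3% in both mutant libraries, and the share with both orders was not computed. Other listed genes had this order too, such as bmp3, acvr2aa and cxcr4a. The gene bmp4 was chosen after its values had been seen. It had 103 and 64 in OE libraries, 47 and 47 in mutant libraries, and 6 and 17 in sibling libraries, with a log2 fold change of 2.87 between OE and siblings (adjusted p = 0.191 from limma) and of 2.10 between mutants and siblings (adjusted p = 1). The ligand gene gdf6a had the same order, with 49 and 39 in OE, 30 and 62 in mutants, and 24 and 23 in siblings (log2 fold changes of 0.87 and 0.85 from siblings). Neither passed the test.

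The antagonist gene chrdl2, also chosen after its values had been seen, had 1 and 0 in OE libraries, 82 and 5 in mutant libraries, and 5 and 15 in sibling libraries. Its value in mutant replicate 1 was the highest of the 6, the library in which id3 was also at its highest.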
